A study of Mus musculus with 6 samples.

Results

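The 10 genes described here encode steps of insulin action on glucose in skeletal muscle: Insr, Irs1, Irs2, Pik3r1, Akt2, Tbc1d1, Tbc1d4, Slc2a4, Slc2a1 and Hk2. They were chosen by symbol among the 23152 genes that the array annotation names, and all 10 were measured, by 171 of the 269751 probe sets in the table. RNA came from the soleus, a calf muscle with many slow fibres. The mice were males, 18 weeks old, and had been without food for 14 h. The 3 control mice (WT) were Gna13 flox/flox, and the 3 knockout mice (Gna13 MKO, here MKO) were Ckmm-Cre; Gna13 flox/flox. Both groups thus carried floxed alleles of Gna13, the gene of the G protein subunit Gα13, and only the MKO mice carried Cre recombinase, driven by the muscle creatine kinase promoter. No group carried Cre without floxed alleles, so effects of Cre and of the deletion cannot be told apart, and cells that do not use this promoter keep the gene.

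Insulin binds its receptor, a tyrosine kinase that phosphorylates the adaptors IRS1 and IRS2. These recruit phosphatidylinositol 3-kinase (PI3-kinase), whose lipid product brings the kinase Akt to the membrane. Akt phosphorylates TBC1D4 (AS160) and TBC1D1, which otherwise hold Rab GTPases inactive, and vesicles that carry the glucose transporter GLUT4 then reach the cell surface, where hexokinase traps the glucose that enters. Most of this control acts on phosphorylation and on the place of proteins in the cell, which arrays do not measure, and fasting itself lowers insulin.

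No member of the set passed the adjusted threshold between MKO and WT. With limma and Benjamini-Hochberg adjustment over all 23152 genes, 0 of 10 members had an adjusted p under 0.05, and the share over all genes was 0%. A re-implemented local pooled error test (LPE, the test the design text names) also called 0 of 10, against 0.108% of all genes. At an unadjusted limma p under 0.05 were 1 of 10 members, Tbc1d4, and 4.33% of all genes. Of the 10 members, 4 had a higher and 6 a lower mean in MKO, with a median difference of −0.03 on the log2 scale and a range from −0.18 to 0.41. Pik3r1, at −0.02, was on the higher side after quantile normalization or median centring of the arrays. The median over all genes was −0.01, with 46.6% of genes higher, and over genes brighter than the median gene it was −0.04, with 38.4% higher. The 3 MKO arrays overlapped the 3 WT arrays in all 10 members, whereas they lay apart for 9.25% of all genes.

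**Figure D1:**
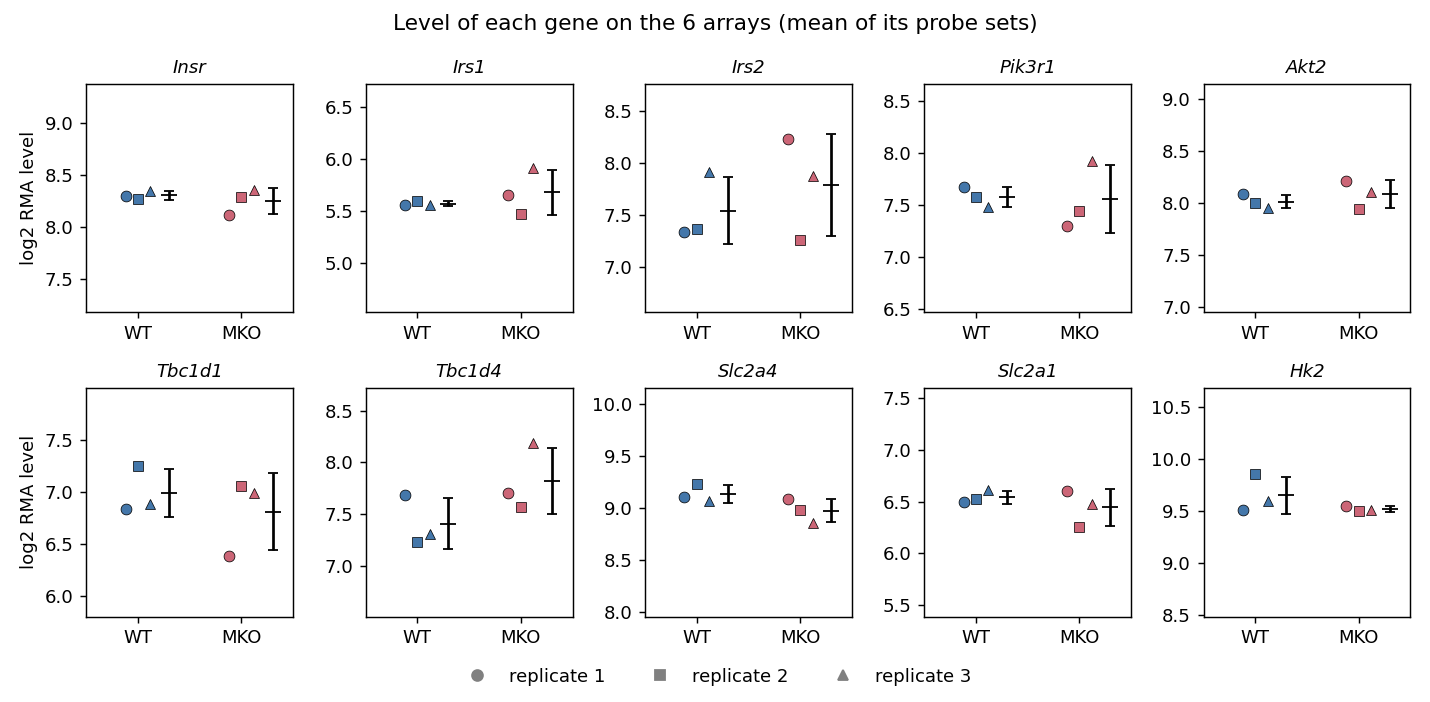
Log2 RMA level (vertical axes, each spanning the same range) of the 10 genes on the 3 WT (blue) and 3 MKO (red) arrays, with the marker shape giving the replicate number and the black bar the mean ± SD of each group. Groups overlap in every panel, the means of Tbc1d4 lie farthest apart (7.41 in WT and 7.82 in MKO), and the MKO values of Irs2 span 7.26 to 8.23.

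Levels are log2 values made by robust multi-array averaging (RMA), each gene's value being the mean of its probe sets, and differences are MKO minus WT. Mean levels of the 10 genes lay between 5.57 and 9.65 in WT, above the median gene of the table at 4.41. Levels of different genes depend on their probes and are not set against each other. The muscle origin was checked with 6 genes of skeletal muscle fibres, Ckm, Acta1, Mb, Des, Ttn and Myot, whose lowest value on any array was 9.07. These genes do not tell the soleus from other muscles. Among the 7 Gna13 probe sets, 17257825 was at 5.96 in WT and 4.0 in MKO with no overlap of the groups, and 3 of the other 6 were higher in MKO with no overlap.

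The receptor and its adaptors were examined first. Insr, the insulin receptor, stood at 8.30, 8.27 and 8.35 in the WT mice and at 8.12, 8.29 and 8.36 in the MKO mice. MKO replicate 1 was the lowest array, and the other MKO arrays lay within or just above the WT range. The difference was −0.05 (SE 0.09, 95% confidence interval −0.26 to 0.15, limma adjusted p = 0.9997), and it was 0.02 without MKO replicate 1. Its 24 probe sets, all brighter than the median probe set, gave 9 higher and 15 lower differences between −0.38 and 0.27. The probe set with the largest difference, 17507066, was at 6.66 in MKO replicate 1 and between 8.04 and 8.28 on the other arrays. Probe set 17507071, with the smallest p, differed by −0.23 (SE 0.15) with overlapping groups.

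Irs1, the adaptor that couples the receptor to PI3-kinase in muscle, stood at 5.56, 5.59 and 5.56 in WT and at 5.65, 5.47 and 5.91 in MKO. The WT arrays were within 0.04 of each other, while the MKO arrays spanned 0.44 and lay on both sides of them. The difference was 0.11 (SE 0.14, interval −0.20 to 0.41, limma adjusted p = 0.9997), and it was −0.01 without MKO replicate 3. Of its 6 probe sets, 3 were higher and 3 lower, and 2 were dimmer than the median probe set. Probe set 17224881 had the smallest p, at a difference of 0.32 (SE 0.29), and the dim probe set 17214756 the largest difference, 0.36 (SE 0.55).

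Irs2, the second main adaptor, which is known to respond to fasting in liver, was the most variable member. Its values were 7.34, 7.37 and 7.91 in WT and 8.23, 7.26 and 7.87 in MKO. Each group held both low and high arrays, with MKO replicates 1 and 2 as the highest and the lowest of the 6. The residual SD of 0.42 was at percentile 95.7 of all genes, and the gene's value rests on 2 probe sets. Both probe sets ranked MKO replicate 1 highest and MKO replicate 2 lowest, so the spread was shared by them. Probe set 17507375, with the smaller p and the larger difference of the pair, differed by 0.29 (SE 0.26). The difference of 0.25 (SE 0.21, interval −0.21 to 0.70, limma adjusted p = 0.9997) was 0.02 without MKO replicate 1 and 0.51 without MKO replicate 2. It was 0.50 with the LPE test, which compares medians (adjusted p = 0.568 over all genes). The change of Irs1 relative to Irs2 within each array was −0.14 (exact permutation test, two-sided, p = 0.5, adjusted p = 0.8 over 4 pairs of related genes). With 3 against 3 mice, this exact test cannot give a p below 0.1.

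The PI3-kinase subunit and Akt2 showed small differences. Pik3r1 encodes p85α, the regulatory subunit that docks PI3-kinase on IRS proteins, together with shorter forms from other start sites. It stood at 7.68, 7.58 and 7.48 in WT and at 7.30, 7.44 and 7.92 in MKO. The MKO arrays lay on both sides of the WT arrays, and MKO replicate 3 was the highest array in 13 of the 19 probe sets. The difference was −0.02 (SE 0.15, interval −0.33 to 0.29, limma adjusted p = 0.9997), with 10 probe sets higher and 9 lower. Probe set 17295807 had the largest difference, −0.68 (SE 0.54), with values from 4.54 to 6.23 in WT and from 4.10 to 5.54 in MKO. Probe set 17295801 had the smallest p of the 19 (difference 0.25, SE 0.15, limma adjusted p = 0.977 over all rows), and its MKO arrays all lay above its WT arrays.

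Akt2, the Akt isoform most tied to glucose uptake, stood at 8.09, 8.01 and 7.96 in WT and at 8.21, 7.94 and 8.11 in MKO. The groups overlapped, with MKO arrays at both ends. The difference was 0.07 (SE 0.10, interval −0.15 to 0.29, limma adjusted p = 0.9997), so a rise of up to 1.22-fold or a fall of up to 1.11-fold lay within the interval. Without MKO replicate 1 it was 0.007, and without MKO replicate 2 it was 0.14. Of its 17 probe sets, 10 were higher. Probe set 17475647 was at 7.86, 8.13 and 8.24 in WT and at 8.51, 8.87 and 8.39 in MKO, a difference of 0.52 (SE 0.18, limma adjusted p = 0.977).

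The Rab GTPase-activating proteins TBC1D4 and TBC1D1 are related in sequence and act at the same step, TBC1D1 also being a target of AMP-activated protein kinase. With all arrays and the mean of all probe sets, Tbc1d4 had the largest difference of the 10 members, and that of Tbc1d1 was below 0 but turned above it with the LPE test (0.11) and without MKO replicate 1 (0.03). Of the 10 members, 8 had at least 1 window in a table of RefSeq start sites of build GRCm38.p6, 13 windows in all, each from 250 bases before to 50 bases after a start. Promoters of this pair are shown because it is the pair of related genes whose RNA differences lay farthest apart, with capitals marking E-boxes (CANNTG), the sequence bound by MyoD and other muscle regulators of that family. Tbc1d4 lies at chr14:101609142-101609441 on the minus strand, and the upstream one of the 2 Tbc1d1 windows at chr5:64160010-64160309 on the plus strand.

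Tbc1d4: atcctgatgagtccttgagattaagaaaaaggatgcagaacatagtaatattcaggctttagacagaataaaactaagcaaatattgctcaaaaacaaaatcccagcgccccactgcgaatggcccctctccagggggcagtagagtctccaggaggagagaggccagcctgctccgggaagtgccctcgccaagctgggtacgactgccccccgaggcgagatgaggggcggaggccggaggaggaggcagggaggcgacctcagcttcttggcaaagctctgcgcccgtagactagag

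Tbc1d1: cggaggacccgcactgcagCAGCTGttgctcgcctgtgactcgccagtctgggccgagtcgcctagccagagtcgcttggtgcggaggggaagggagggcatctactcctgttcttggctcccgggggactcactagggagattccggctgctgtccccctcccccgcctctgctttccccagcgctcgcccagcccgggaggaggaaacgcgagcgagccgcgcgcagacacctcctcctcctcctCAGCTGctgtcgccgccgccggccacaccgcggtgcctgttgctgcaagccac

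The Tbc1d1 window shown held 2 E-boxes, both with the letters CAGCTG, while the Tbc1d4 window and the downstream Tbc1d1 window, at chr5:64230107-64230406, each held 0. Of all 32817 windows, 72.3% held at least 1. The motif GGAAA, the core bound by NFAT, was present 2 times in the Tbc1d1 window shown and 0 times in both the Tbc1d4 window and the downstream Tbc1d1 window, against 61.3% of all windows with at least 1. The FoxO motif GTAAACA (3.65% of all windows), the cyclic AMP response element TGACGTCA (1.79%), the MEF2 site (3.19%) and the CArG box of serum response factor (1.63%) were in 0 of the 13 member windows. The shorter motif TGACG, the start of the cyclic AMP response element, was in 6 of the 13, against 20.8% of all windows. These 6 belonged to 5 members, Akt2, Hk2, Irs1, Pik3r1 and Tbc1d1. The downstream Tbc1d1 window held TGACG 2 times and the 2 windows shown 0 times. E-boxes were in 7 of the 13 and GGAAA in 6. Whether these shares differ from those of all windows was not tested. Both strands were searched, no motif overlapped another in the 2 windows shown, and a match is a description of letters. The Tbc1d4 window had 55.7% G and C and the Tbc1d1 windows 69.3% and 74.0%, against a median of 52.7% over all windows.

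Tbc1d4 stood at 7.69, 7.24 and 7.31 in WT and at 7.71, 7.58 and 8.19 in MKO. MKO replicates 1 and 3 lay above every WT array, while MKO replicate 2 lay below WT replicate 1. The means were 7.41 ± 0.24 in WT and 7.82 ± 0.32 in MKO (SD, n = 3). The difference was 0.41 (SE 0.16, 1.33-fold, interval 0.06 to 0.76, limma adjusted p = 0.9997), and its size was at percentile 96.3 of all genes. It was 0.23 without MKO replicate 3 (limma adjusted p = 0.792) and 0.55 without WT replicate 1.

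The probe sets of Tbc1d4 shared this direction. Of 22, 21 were higher in MKO, including all 20 that were brighter than the median probe set, where 46.9% of all such probe sets and 48.7% of all rows in the table were higher. Probe sets of a gene read the same RNA and are not replicates. MKO replicate 3 was the highest of the 6 arrays in 19 of the 22, and the lowest was WT replicate 2 in 11 and WT replicate 3 in 8. At an unadjusted limma p under 0.05, 9 of the 22 were higher and 0 lower, against 5% of all rows in either direction, and none of the 171 passed after adjustment over all rows, as 0% of all rows did. Probe set 17309132 had the smallest p, at 8.99, 8.70 and 8.79 in WT and 9.23, 9.20 and 9.50 in MKO. Its difference was 0.48 (SE 0.14, limma adjusted p = 0.977). The largest difference was 1.07 (SE 0.47) in probe set 17309119, at 5.42, 4.21 and 4.64 in WT and 5.30, 5.50 and 6.68 in MKO, where the groups overlapped. In 6 of the 22 the MKO arrays lay above all WT arrays, against 4.81% of all rows, and over the 171 probe sets the groups lay apart in 22, against 9.86%.

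**Figure D2:**
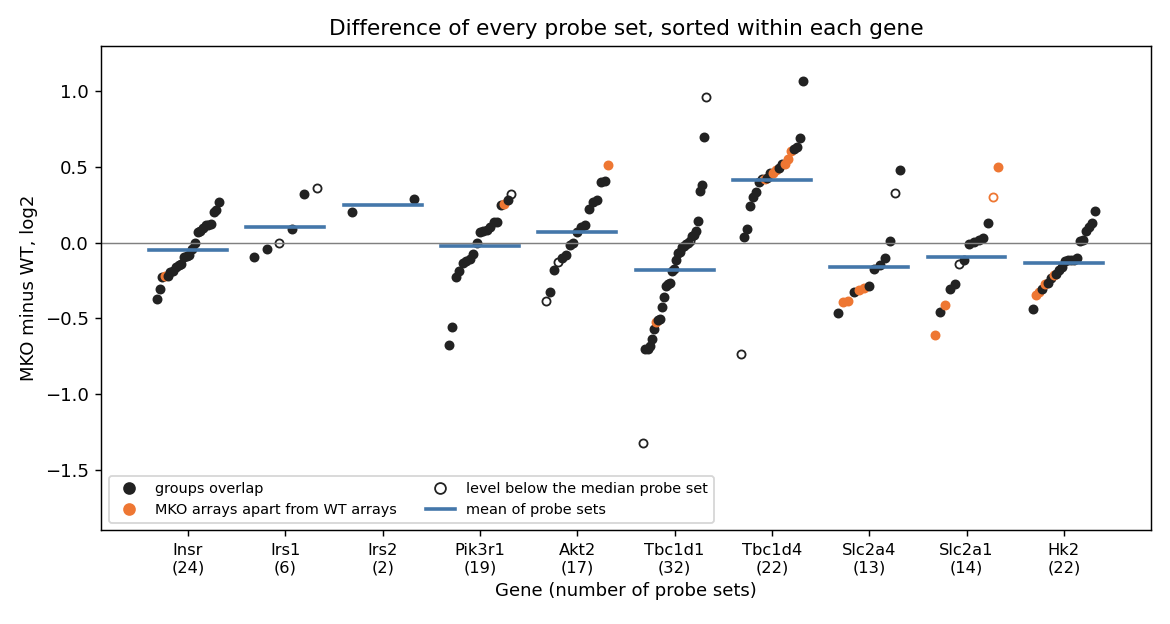
Difference MKO minus WT (log2, vertical axis) of each of the 171 probe sets, sorted within each gene, with orange for probe sets whose MKO arrays lie apart from the WT arrays, open circles for those dimmer than the median probe set and a blue line at the gene's difference. In Tbc1d4, 21 of 22 points lie above 0, in Slc2a4 10 of 13 lie below it, and those of Tbc1d1 run from −1.33 to 0.96.

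Tbc1d1 stood at 6.84, 7.25 and 6.88 in WT and at 6.38, 7.06 and 6.99 in MKO. MKO replicate 1 was the lowest array, and the other MKO arrays lay inside the WT range. The difference was −0.18 (SE 0.17, interval −0.56 to 0.20, limma adjusted p = 0.9997), and it was −0.33 with the median of the probe sets. Of its 32 probe sets, 23 were lower and 9 higher, and MKO replicate 1 was the lowest array in 19. Probe set 17437644 was at 8.01, 8.29 and 8.20 in WT and at 7.45, 7.75 and 7.72 in MKO, a difference of −0.53 (SE 0.16, limma adjusted p = 0.977). The largest difference, −1.33 in probe set 17437666, came from a dim probe set with values from 1.73 to 5.77. Within each array, Tbc1d4 minus Tbc1d1 differed by 0.59 between the groups (exact permutation test, two-sided, p = 0.2, adjusted p = 0.8 over 4 pairs). MKO replicate 2, at 0.52, lay below WT replicate 1, at 0.85.

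Fast fibres make more TBC1D1 than slow fibres do in mice. Most of 10 fast fibre genes were lowest on the array where Tbc1d1 was lowest, some of them only slightly, and others were not. Myh4, the myosin heavy chain of type IIb fibres, stood at 10.89, 9.48 and 11.72 in WT and at 5.11, 7.94 and 11.51 in MKO. Actn3, the fast fibre α-actinin, was at 6.61 in MKO replicate 1 and between 8.94 and 10.29 elsewhere, and the calcium buffer Pvalb was at 5.64 there and between 7.30 and 8.23 elsewhere. These 3 were picked after their values were seen. Myh1 (9.94), Tnnt3 (11.66), Mylpf (8.62) and Atp2a1 (11.82) were also lowest in MKO replicate 1. Their next lowest arrays were close, at 9.96, 11.71, 8.68 and 11.93. The fast troponin C gene Tnnc2 was instead highest in MKO replicate 1 (11.11), Tnni2 lay mid-range there (10.20), and Myh2 was lowest in MKO replicate 2 (11.40). The summed level of 10 fast fibre markers ranged from 14.06 to 14.29 in WT and from 13.84 to 14.29 in MKO on the log2 scale, with the lowest in MKO replicate 1. For 6 slow fibre markers it ranged from 13.26 to 13.48 in WT and from 13.29 to 13.41 in MKO. Low levels in MKO replicate 1 were not limited to fast fibre genes. It also had the lowest summed level for skeletal muscle fibre genes (13.91), endothelium (10.22) and fibroblasts (10.89). The same held for adipocytes, macrophages (7.65) and satellite cells (7.25). It was not lowest for slow fibres (13.41), red cells (5.35), Schwann cells with perineurium (7.84) or smooth muscle with pericytes (10.22). Among the WT mice the highest Tbc1d1 and the lowest Myh4 value were both in replicate 2. The part of fibre makeup in the Tbc1d1 values was not tested. In RNA from whole muscle, fewer cells of a type and less RNA per cell cannot be told apart.

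**Figure D3:**
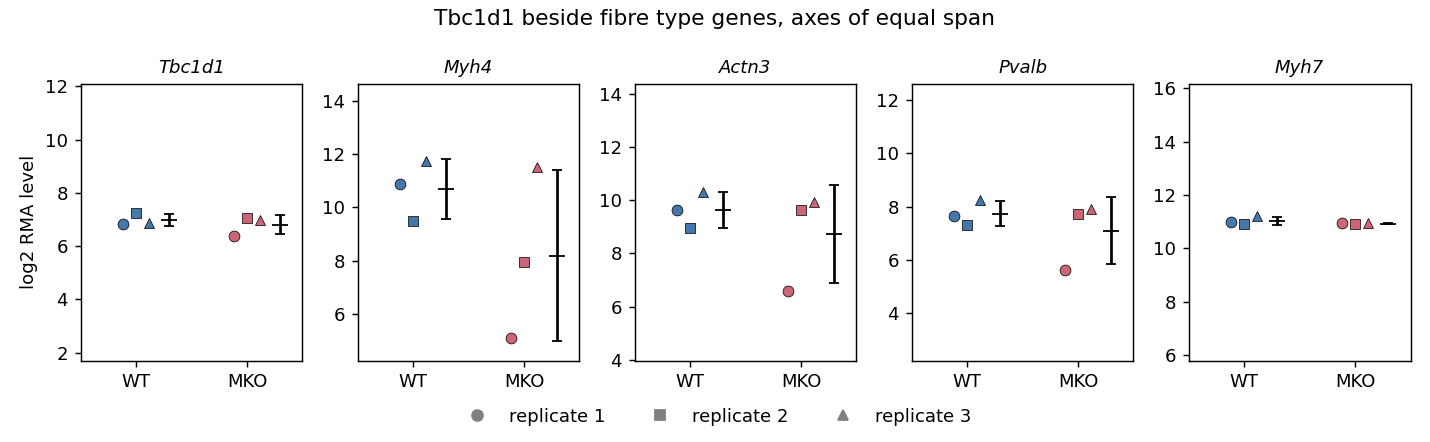
Log2 RMA level (vertical axes of equal span) of Tbc1d1, the fast fibre genes Myh4, Actn3 and Pvalb and the slow myosin gene Myh7 on the 3 WT (blue) and 3 MKO (red) arrays, with mean ± SD of each group in black. MKO replicate 1 (red circle) is the lowest array for Tbc1d1 (6.38), Myh4 (5.11), Actn3 (6.61) and Pvalb (5.64), while Myh7 lies between 10.90 and 11.21 on all arrays. Myh4, Actn3 and Pvalb were picked after their values were seen. Of the fast fibre genes not shown, Tnnc2 was highest in MKO replicate 1, Tnni2 and Myh2 were not lowest there, and the others were lowest by small margins.

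Transporters and hexokinase 2 had lower means in MKO. Slc2a4 encodes GLUT4, the transporter that insulin and contraction bring to the surface of muscle fibres. It stood at 9.11, 9.24 and 9.07 in WT and at 9.09, 8.99 and 8.86 in MKO. MKO replicates 2 and 3 lay below every WT array, and MKO replicate 1 lay inside the WT range. The means were 9.14 ± 0.09 in WT and 8.98 ± 0.11 in MKO (SD, n = 3). They differed by −0.16 (SE 0.09, 1.12-fold lower, interval −0.35 to 0.03, limma adjusted p = 0.9997). For the mean of the probe sets, this interval leaves out a fall beyond 1.28-fold, and it is not adjusted for the number of genes. Of its 13 probe sets, 10 were lower, all of them brighter than the median probe set, and in 4 the MKO arrays were all lower than WT, against 5.05% of all rows. Probe set 17265098 was at 11.34, 11.42 and 11.23 in WT and between 10.95 and 11.14 in MKO, a difference of −0.30 (SE 0.09, limma adjusted p = 0.977). The largest difference, 0.48 (SE 0.34), was that of probe set 17265097, with values from 5.52 to 6.75. With the median in place of the mean of the probe sets, the difference of Slc2a4 was −0.35, and the interval above does not apply to it.

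Slc2a1 encodes GLUT1, a transporter of basal glucose uptake that is also abundant in endothelium of some tissues and in perineurium. It stood at 6.49, 6.52 and 6.61 in WT and at 6.61, 6.25 and 6.48 in MKO. MKO replicate 2 was the lowest array and the others lay close together. The difference was −0.10 (SE 0.12, interval −0.37 to 0.17, limma adjusted p = 0.9997), it was 0 to 3 decimals without MKO replicate 2, and it was −0.32 with the median of the probe sets. Of its 14 probe sets, 6 were higher and 8 lower. The MKO arrays lay above WT in 2, against 4.81% of all rows, and below WT in 2, against 5.05%. Probe set 17417853 had the largest difference, −0.61 (SE 0.31), at 6.96, 7.28 and 7.30 in WT and 6.95, 5.87 and 6.88 in MKO. Probe set 17417849 had the smallest p, at a difference of −0.41 (SE 0.20) with the MKO arrays below WT. The change of Slc2a1 relative to Slc2a4 was 0.06 (exact permutation p = 0.8, adjusted p = 0.8).

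Of 10 endothelial markers, all brighter than the median gene, 10 had lower means in MKO with a median of −0.16. Over all such genes 38.4% were higher, with a median of −0.04. The summed level of the endothelial markers ranged from 10.29 to 10.70 in WT and from 10.22 to 10.51 in MKO. The defining markers Pecam1 and Cdh5 were at −0.07 and −0.10. The largest difference was that of the tight junction gene Cldn5 at −0.73 (limma adjusted p = 0.666), with all MKO arrays below WT. The summed level of 6 measured markers of Schwann cells and perineurium ranged from 7.88 to 7.92 in WT and from 7.72 to 8.14 in MKO, with 3 genes higher and 3 lower. The sum was lowest in MKO replicate 2, as was its brightest gene Pmp22 (6.44). S100b was highest of the 6 arrays there (3.37), though its levels lie below the median gene on all arrays. Cldn1 and Itgb4 were lowest in MKO replicate 1. Both measured red cell genes, Alas2 and Slc4a1, had lower means in MKO (−0.47 and −0.27), and their summed level ranged from 5.36 to 6.09 in WT and from 5.33 to 5.56 in MKO. The part of endothelium and perineurium in the Slc2a1 values was not tested. Marker lists of fibroblasts, adipocytes, macrophages, satellite cells and smooth muscle with pericytes had medians of −0.31, −0.14, −0.15, −0.07 and −0.03.

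Hk2, the hexokinase of muscle that insulin and exercise induce, stood at 9.51, 9.85 and 9.59 in WT and at 9.55, 9.50 and 9.51 in MKO. It was the 1 member whose MKO arrays spanned less than its WT arrays, 0.05 against 0.34, and WT replicate 2 was the highest array in 18 of its 22 probe sets. The difference was −0.14 (SE 0.09, interval −0.33 to 0.06, limma adjusted p = 0.9997) and it was −0.04 without WT replicate 2. Of the probe sets, 16 were lower and 6 higher, between −0.44 and 0.21. Probe set 17468042 was at 10.80, 11.07 and 10.86 in WT and at 10.63, 10.68 and 10.60 in MKO, a difference of −0.27 (SE 0.09, limma adjusted p = 0.977). The largest difference, −0.44 (SE 0.41), was that of probe set 17468040. Hk1, the form found in most tissues, differed by −0.07, and its change relative to Hk2 was 0.07 (exact permutation p = 0.7, adjusted p = 0.8), 0.34 with the median of probe sets and 0.21 with probe sets brighter than the median probe set.

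The other 9 members had a wider range over the MKO than over the WT arrays, and 59.2% of all genes did. An MKO array was the lowest of the 6 in 9 members and the highest in 6. The residual SD ran from 0.09 for Insr, at percentile 9.6 of all genes, to 0.42 for Irs2, and those of Tbc1d1 (0.31) and Tbc1d4 (0.28) were at percentiles 85.3 and 80.8. No array was highest or lowest throughout, since MKO replicate 1 was the lowest for Insr, Pik3r1 and Tbc1d1 and the highest for Irs2 and Akt2.

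Other genes of the pathway were taken from a list of 111 entries in 7 groups by role, of which 106 were measured. With limma, 0 of the 106 passed the adjusted threshold in either direction, as 0% of all genes did. The LPE test called 0, against 0.108% of all genes. At an unadjusted limma p under 0.05, 1 was higher, against 1.92% of all genes, and 3 were lower, against 2.41%. In MKO 35 were higher and 71 lower, so 33% were higher, with a median of −0.06, against 46.6% and −0.01 over all genes. Among those brighter than the median gene, 27 of 92 were higher, with a median of −0.07, against 38.4% and −0.04 over all such genes. This split was 51 higher and 55 lower (median −0.01) after quantile normalization and 48 higher and 58 lower (median −0.03) after median centring, where 50.3% and 53% of all genes were higher. In 8 of the 106 every MKO value was below the WT values, against 4.99% of all genes, and in 0 above them, against 4.26%.

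Among 14 measured targets downstream of Akt, 6 were higher and 8 lower (median −0.03). Gsk3b, the kinase that Akt restrains to allow glycogen synthesis, had the smallest p of all 106. It stood at 8.76, 8.74 and 8.84 in WT and at 8.31, 8.34 and 8.61 in MKO, and the groups did not overlap. Its difference was −0.36 (SE 0.10, 1.28-fold lower, limma adjusted p = 0.9997). Ppp1r3a, which targets a phosphatase to glycogen in muscle, differed by 0.18 (SE 0.12), and the related kinase gene Gsk3a by −0.11 (SE 0.09).

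Of 16 inhibitors of insulin signalling, 4 were higher and 12 lower (median −0.06). Enpp1, a membrane ectoenzyme that can inhibit the insulin receptor, stood at 6.08, 6.20 and 5.96 in WT and at 5.80, 5.54 and 5.84 in MKO. All MKO arrays lay below all WT arrays, at a difference of −0.35 (SE 0.14, limma adjusted p = 0.9997). Inppl1, the lipid phosphatase SHIP2, differed by −0.19 (SE 0.11) and Prkcq, protein kinase C theta of muscle, by −0.20 (SE 0.12). Among 11 receptors and adaptors, 4 were higher and 7 lower (median −0.11), led by the adaptors Sh2b2 (−0.31, SE 0.14), Dok4 (−0.22, SE 0.15) and Dok5 (−0.17, SE 0.12). Among 14 genes of PI3-kinase, PDK1, Akt and mTORC2, 5 were higher and 9 lower (median −0.03). Those with the smallest p were the regulatory subunit gene Pik3r3 (−0.27, SE 0.13, MKO arrays below WT), the catalytic subunit gene Pik3cb (−0.36, SE 0.19) and the Akt phosphatase gene Phlpp2 (−0.18, SE 0.16).

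Of 27 genes of glucose transporter traffic, 8 were higher and 19 lower (median −0.06). Rab4b, a GTPase of endosomal recycling, was at 2.96, 3.10 and 3.70 in WT and at 4.05, 4.09 and 3.55 in MKO. These levels lie below the median gene, and the groups overlapped, at a difference of 0.65 (SE 0.22, limma adjusted p = 0.9997). Snap23, a membrane fusion protein for GLUT4 vesicles, differed by −0.33 (SE 0.15) and Rab8a, a Rab GTPase that TBC1D4 acts on, by −0.25 (SE 0.14). Of 14 other hexose transporters, hexokinases and genes that restrain uptake, 4 were higher and 10 lower (median −0.04), led by Slc2a6 (−0.31, SE 0.19), Slc2a8 (−0.17, SE 0.13) and Slc2a3 (0.25, SE 0.19). Slc2a6, at 3.92 in WT and 3.60 in MKO, and Slc2a3, at 3.08 and 3.33, also lie below the median gene. Of 10 kinases and related genes of the contraction route to glucose uptake, 4 were higher and 6 lower (median −0.07). Prkaa1, a catalytic subunit of AMP-activated protein kinase, was at 7.77, 7.88 and 7.53 in WT and at 7.25, 7.49 and 7.51 in MKO. The groups did not overlap, though WT replicate 3 and MKO replicate 3 nearly met, and the difference was −0.31 (SE 0.12, limma adjusted p = 0.9997). Camk2d (−0.25, SE 0.17) and Nos1 (0.21, SE 0.15) followed.

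**Figure D4:**
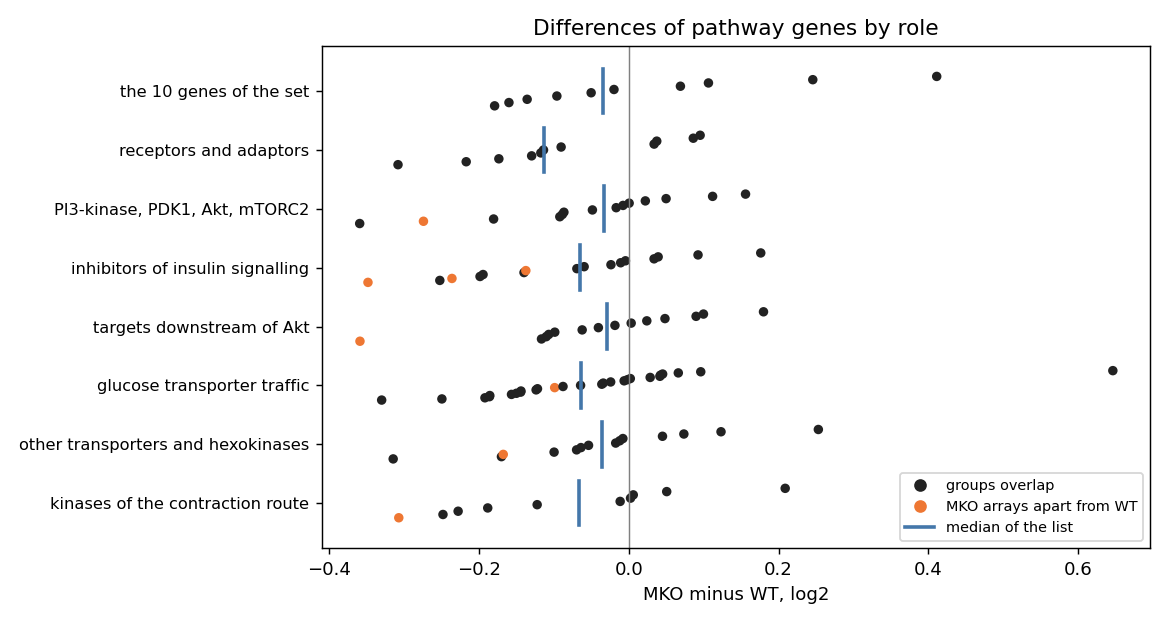
Difference MKO minus WT (log2, horizontal axis) of the 10 genes and of 106 other pathway genes grouped by role, with orange points for genes whose MKO arrays lie apart from the WT arrays and a blue line at each group's median. Medians lie between −0.11 and −0.03, the 8 orange points are all below 0, and Rab4b stands farthest to the right at 0.65.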

How the data were processed

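RNA of 3 WT and 3 MKO soleus muscles was hybridised to Affymetrix Mouse Gene 2.0 ST arrays, 1 per mouse, per the labels. The deposited values are log2 values per probe set that the authors made by RMA in Affymetrix Expression Console, per the submitters' processing notes. The software versions and the genome build were not given in the sources used here. RMA normalizes between arrays, so a level is relative to the other genes of its array.

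Genes were named by the platform's annotation, using the 233753 rows with exactly 1 symbol. A gene's value is the mean of its probe sets. Groups were compared with limma 3.58.1 in R 4.3.3 (variance trend, two-sided, Benjamini-Hochberg over all genes or all rows, threshold 0.05), checked on simulated data. Intervals are limma's 95% confidence intervals, not adjusted for the number of genes. Related genes were compared within arrays by exact permutation tests. The summed level of a marker list is the log2 of the sum of unlogged values. Of 77 marker entries 72 and of 111 pathway entries 106 matched a gene. Precision is limited by the 3 arrays per group.

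The members and lists were chosen with earlier results of these data known. Named were all members, for each the probe sets with the smallest p and the largest difference, and the 3 genes of each pathway list with the smallest p. Alternatives were limma without a trend, with robust moderation, array weights or a block for the replicate number, quantile normalization, median centring, filters on dim genes or probe sets, the median of probe sets, a re-implemented LPE test, and each array left out. Sequences come from RefSeq. Python 3.11.15 drew figures.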

Additional observations from a re-analysis of the deposited data

How the results depend on the processing

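The counts of members (0 of 10) and of other pathway genes (0 of 106) past the adjusted threshold were 0 under all 16 alternatives. These called between 0% and 0.108% of all genes, the most with the LPE test. The count of member probe sets was 0 under all 11 alternatives, as was that of all rows. With so few genes called anywhere, these counts of 0 do not set the members apart from other genes. Of 160 member differences under alternatives, 150 kept their sign, and Irs2, Tbc1d4, Slc2a4, Slc2a1 and Hk2 changed sign under none. Tbc1d4 ranged from 0.23 to 0.56, with an unadjusted p under 0.05 in 11 of 16 and a lowest adjusted p of 0.688, and Slc2a4 ranged from −0.35 to −0.10. At an unadjusted p under 0.05 were also Slc2a4 with the median of probe sets (0.0102) and without MKO replicate 1, and Irs2 with the LPE test (0.00397) and without MKO replicate 2. Pik3r1 turned to 0.027 after quantile normalization and 0.005 after median centring, Akt2 to −0.004 with array weights, and Tbc1d1 to 0.11 with the LPE test, which compares medians. The cause was not tested. With single arrays left out, Insr ranged from −0.10 to 0.019, Irs1 from −0.009 to 0.21, Pik3r1 from −0.20 to 0.11, Akt2 from 0.007 to 0.14 and Tbc1d1 from −0.30 to 0.034. The relative changes then ranged from −0.33 to 0.094 for Irs1 minus Irs2, −0.011 to 0.16 for Slc2a1 minus Slc2a4, −0.049 to 0.14 for Hk1 minus Hk2 and −0.84 to −0.37 for Tbc1d1 minus Tbc1d4. Same-numbered arrays deviated from their group means with correlations of −0.088, 0.091 and −0.236 over genes. With 3 arrays per group these values cannot tell whether the numbers pair the mice, and the labels do not say. With the replicate number as a block, 0 members, 0 pathway genes and 0 member probe sets passed, as 0% of all genes did. Tbc1d4 then differed by 0.411.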
